A study of Mus musculus with 6 samples.

Results

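Genes of glucose uptake, glycolysis, lactate handling, glycogen metabolism and the pentose phosphate pathway were followed in the pressure-overloaded mouse left ventricle, with and without blockade of the immune checkpoint receptor PD-1. The set is a list of 42 genes, looked up by gene symbol in the deposited count table. All 42 were found among its 54929 rows, and 41 of them passed the filter on low counts, among 14807 tested genes. Aldoc, the brain-type aldolase, was not tested: its counts were 1, 7 and 3 in the anti-IgG libraries and 4, 0 and 4 in the anti-PD-1 libraries. The symbol Aldoa stood on 2 rows, and the row with more reads was used (the other held 1 to 11 counts per library).

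The 6 libraries were mRNA-seq of left ventricle from wild-type C57BL/6 mice, all of which had undergone TAC (transverse aortic constriction), an operation in which the aortic arch is narrowed so that the ventricle pumps against raised pressure. In 3 of them the mice received an anti-IgG antibody, the control, and in the other 3 an anti-PD-1 antibody. Both antibodies were injected into the peritoneum at 10 mg/kg every 3 days from day 14 after surgery, and the samples carry a time label of 5 weeks. There was no group without TAC and none without antibody. The labels do not say whether the libraries of a group came from separate mice, so p-values here speak only to the variation among these libraries, which may be technical.

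Summed counts per library were 18063344 to 21093163. Mitochondrial genes held 28.9% to 39.3% of them, and the 42 genes held 0.884% to 1.20%. Markers of cardiomyocytes, the muscle cells of the heart, summed to between 27516 and 34403 CPM (counts scaled to the library's size with edgeR's TMM factors) with anti-IgG and between 17446 and 30389 CPM with anti-PD-1. Of these 7 markers, Ryr2 rose by 1.39 on the log2 scale, while Myl2, Tnni3 and Tnnt2 fell by 1.87, 1.35 and 1.22. Markers of skeletal muscle, a tissue that uses the same muscle-type isozymes, summed to 1.33 to 3.10 CPM with anti-IgG and 0.150 to 0.480 CPM with anti-PD-1, and Myh4 had no count. In bulk tissue, fewer cells of a type and less RNA per cell cannot be told apart.

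As background, glucose enters cardiomyocytes through facilitative transporters and is phosphorylated by hexokinase. It then either runs down glycolysis to pyruvate and lactate, is stored as glycogen, or enters the pentose phosphate pathway. Several steps have a muscle-type and a more widely expressed isozyme encoded by separate genes. The adult heart draws most of its energy from fatty acids and keeps a glycogen store, and its reliance on glucose is known to increase under pressure overload.

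Of the 41 tested genes, 5 rose and 2 fell with anti-PD-1 (quasi-likelihood test of edgeR, with p adjusted by Benjamini and Hochberg over all tested genes and a threshold of 0.05). Over all tested genes 21.1% passed that threshold, 10.3% higher and 10.8% lower, so the share of glucose and glycogen genes that passed was not above that of the rest. With upper-quartile in place of TMM scaling, 1178 of all tested genes rose and 2022 fell instead of 1525 and 1593, and 3 members rose and 4 fell. The genes that rose were Phka1 and Phkb, subunits of phosphorylase kinase, Gbe1 and Ugp2, enzymes of glycogen synthesis, and Pfkfb3, a maker of the glycolytic activator fructose 2,6-bisphosphate. The genes that fell were Pgam2, the muscle phosphoglycerate mutase, and Taldo1, the transaldolase of the pentose phosphate pathway. The other 34 did not pass, with log2 differences between -1.26 (Pfkfb1) and 0.72 (Gys1). Levels of the groups did not overlap in 12 of 41 genes (29.3%), against 41% of all tested genes. The median log2 difference was 0.11 over the 41 genes and -0.03 over all tested genes.

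**Figure D1:**
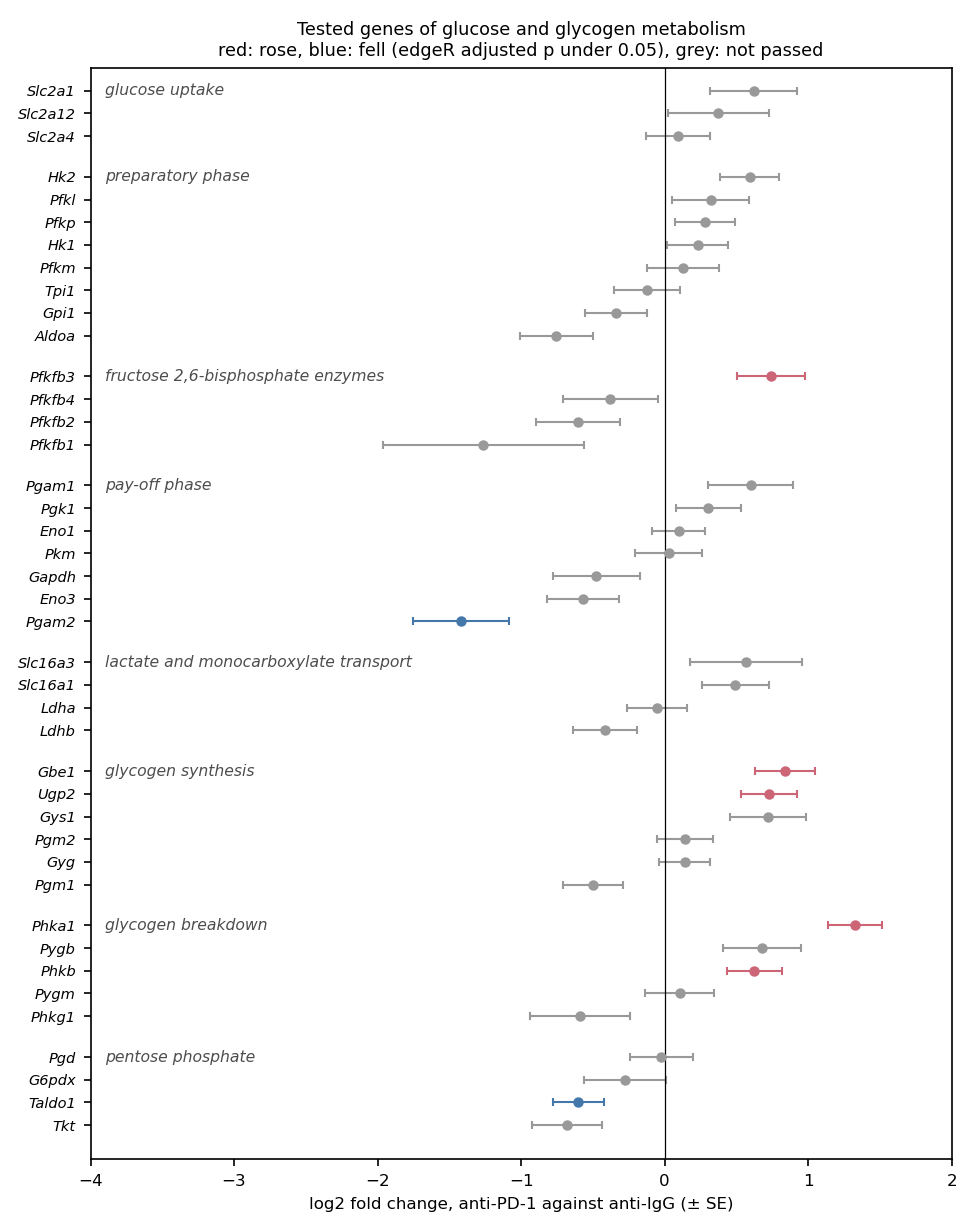
Log2 fold change of each of the 41 tested genes, anti-PD-1 against anti-IgG (x axis), with its SE as a bar, grouped by role; red points rose, blue points fell and grey points did not pass. Of the 7 coloured points, 4 belong to glycogen synthesis or breakdown, and Phka1 (1.33) and Pgam2 (-1.42) are the outermost.

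Gene length moved with the outcome in these libraries, and its part in the results was not tested beyond the values given here. Over all tested genes, the log2 fold change and the gene length deposited by the authors had a Spearman correlation of 0.49, and over the 41 genes of 0.28 (a description across genes of the same libraries). With the tested genes ranked by length and cut into 4 groups of like size, 25.6% fell in the shortest group (57 to 2494 bp), and both genes of the list that fell, Pgam2 (840 bp) and Taldo1 (2171 bp), lie there among 7 members. In the second group (2496 to 4163 bp), 3.92% of genes rose, and Ugp2 (3069 bp) was the 1 that rose of 13 members. In the third group (4164 to 6525 bp), 10.6% rose, and Gbe1 (5352 bp) and Phka1 (6259 bp) did so among 14 members. In the group of longest genes (6526 to 123179 bp), 24.5% rose, and so did Phkb (7417 bp) and Pfkfb3 (7561 bp) among 7 members. The members past the threshold and the genes of the isozyme pairs are therefore given also after a smooth trend of log2 level on length was removed from every library. Without the trend on the authors' length, 4 members rose (5.17% of all genes) and 1 fell (5.13%). Without the trend on coding plus 3′ UTR length, 2 rose (2.92% of all genes) and none fell (2.7%).

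**Figure D2:**
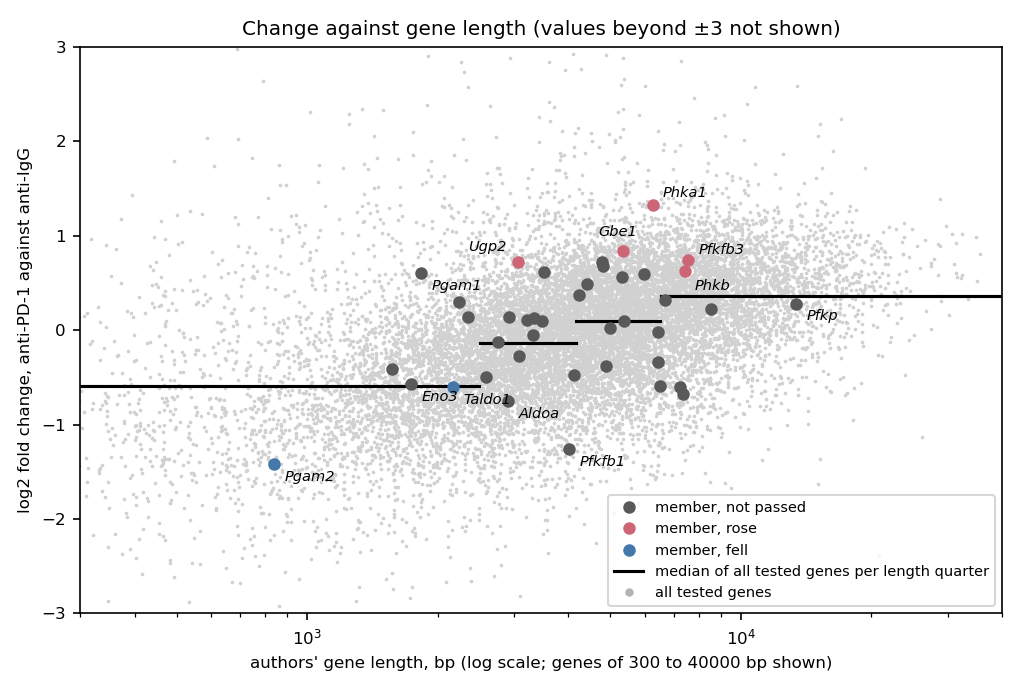
Log2 fold change (y axis, anti-PD-1 against anti-IgG) against the authors' gene length in bp (x axis, log scale) for tested genes within the drawn range in pale grey and for the 41 genes in larger points; black lines are the medians of all tested genes in each of 4 length groups. The medians climb from -0.59 in the shortest to 0.36 in the longest group, Pgam2 lies far left and low, and Ugp2 and Phka1 lie well above the line of their group.

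The genes whose change the results turn on most are Phka1, Ugp2 and Gbe1, which rose, and Pgam2, which fell while its paralogue Pgam1 did not pass. Their promoter windows of 300 bases around the start are printed here from RefSeq's GRCm38.p6 annotation. All lie 5′ to 3′ on the gene's own strand in lower case, with capitals marking ACGTG or its complement CACGT, the core of the sites that hypoxia-inducible factors are known to bind. Where a gene has more than 1 listed start, 1 window is shown.
Phka1 (chrX:102644197-102644496, - strand): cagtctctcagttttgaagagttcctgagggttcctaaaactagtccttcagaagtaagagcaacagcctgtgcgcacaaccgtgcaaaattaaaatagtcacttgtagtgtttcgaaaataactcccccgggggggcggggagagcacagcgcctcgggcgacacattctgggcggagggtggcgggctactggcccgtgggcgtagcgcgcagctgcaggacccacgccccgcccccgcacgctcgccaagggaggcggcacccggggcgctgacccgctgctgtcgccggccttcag
Ugp2 (chr11:21371218-21371517, - strand): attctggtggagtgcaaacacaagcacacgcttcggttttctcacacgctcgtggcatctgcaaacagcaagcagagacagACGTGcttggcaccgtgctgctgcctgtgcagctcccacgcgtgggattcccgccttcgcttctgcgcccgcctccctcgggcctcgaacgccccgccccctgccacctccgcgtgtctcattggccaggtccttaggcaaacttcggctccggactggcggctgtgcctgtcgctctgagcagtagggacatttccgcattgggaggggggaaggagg
Gbe1 (chr16:70313699-70313998, + strand): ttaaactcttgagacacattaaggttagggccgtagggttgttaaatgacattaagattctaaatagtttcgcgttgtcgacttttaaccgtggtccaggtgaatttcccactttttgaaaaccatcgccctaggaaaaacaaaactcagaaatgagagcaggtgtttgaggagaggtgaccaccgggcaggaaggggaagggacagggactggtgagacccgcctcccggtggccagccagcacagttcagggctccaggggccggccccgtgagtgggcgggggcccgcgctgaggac
Pgam2 (chr11:5803747-5804046, - strand): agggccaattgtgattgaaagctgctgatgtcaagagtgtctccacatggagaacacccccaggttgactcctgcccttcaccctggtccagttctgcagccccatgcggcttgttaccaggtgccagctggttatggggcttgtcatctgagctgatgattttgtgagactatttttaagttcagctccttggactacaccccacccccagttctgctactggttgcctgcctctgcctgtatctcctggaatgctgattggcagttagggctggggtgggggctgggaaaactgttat
Pgam1 (chr19:41911621-41911920, + strand): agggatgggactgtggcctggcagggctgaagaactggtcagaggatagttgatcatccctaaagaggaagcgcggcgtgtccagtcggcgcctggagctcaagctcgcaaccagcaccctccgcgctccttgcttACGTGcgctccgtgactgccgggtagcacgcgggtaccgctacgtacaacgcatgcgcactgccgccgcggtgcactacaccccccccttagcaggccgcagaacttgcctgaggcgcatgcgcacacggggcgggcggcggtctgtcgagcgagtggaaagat
The windows of Phka1, Gbe1 and Pgam2 hold no match, that of Ugp2 holds 1, which begins at position -169 from the start, and that of Pgam1 holds 1 at -114. Windows were found for 41 of the 42 genes, 60 windows in all, and Slc2a4 had none in the table. At least 1 window with ACGTG on either strand was held by 22 of 41 genes (53.7%), against 28.9% of tested genes with a window and 21.8% of all genes of the table with one. Over windows, the shares were 43.3% for the list, 24.8% for tested genes and 19.6% for the whole table. Of the 7 genes past the threshold, 2 held the motif. The longer palindrome CACGTG, which contains ACGTG and is the E-box bound by factors such as MYC and the glucose-responsive MLXIPL, stood in a window of 6 of 41 genes (14.6%), against 11.6% of tested genes. A match is a run of letters, not a bound site.

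Glucose uptake was represented by 3 transporters, and none passed the test (median log2 difference 0.37). Slc2a4 encodes GLUT4, the insulin-responsive transporter of muscle and fat. It stood at 203, 179.6 and 247 CPM in the anti-IgG libraries and at 229, 275 and 169 CPM in the anti-PD-1 libraries, and the groups overlapped (log2 difference 0.10, SE 0.22, edgeR adjusted p = 0.793). Slc2a1 encodes GLUT1, the basal transporter of most tissues. Its levels were 11.6, 16.5 and 21.3 CPM with anti-IgG and 33.8, 15.3 and 26.9 CPM with anti-PD-1 (log2 difference 0.62, SE 0.30, edgeR adjusted p = 0.163). Only anti-PD-1 library 2 lay within the anti-IgG range, and without it Slc2a1 passed (adjusted p = 0.0421). Slc2a12, which encodes GLUT12, another transporter of the heart, differed by 0.37 (SE 0.35, adjusted p = 0.471).

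The preparatory phase of glycolysis, from hexokinase to triosephosphate isomerase, had 8 tested genes, and none passed (5 higher, median 0.18). Hk2, the muscle hexokinase, came nearest among those above zero. Its levels were 149, 133 and 199.6 CPM with anti-IgG and 259, 214 and 252 CPM with anti-PD-1, so every anti-PD-1 library was above every anti-IgG library (160 ± 34.9 against 242 ± 24.4 CPM, SD, n = 3; log2 difference 0.59, SE 0.21, edgeR adjusted p = 0.0627). It passed without anti-IgG library 3, the highest of its group (adjusted p = 0.0482). Hk1, the widely expressed hexokinase, stood at 103, 94.3 and 136 CPM with anti-IgG and 107, 157 and 127 CPM with anti-PD-1, which overlap (log2 difference 0.23, SE 0.21, edgeR adjusted p = 0.46).

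Phosphofructokinase, which commits the sugar to glycolysis, has 3 subunit genes. Pfkm, the muscle subunit, stood at 454, 284 and 452 CPM with anti-IgG and 433, 535 and 332 CPM with anti-PD-1 (log2 difference 0.13, SE 0.25, edgeR adjusted p = 0.749). Pfkl, the liver subunit, was at 53.3, 34.1 and 76.9 CPM and at 78.5, 69.7 and 57.3 CPM (0.32, SE 0.27, adjusted p = 0.408). Pfkp, the platelet subunit, was at 65.0, 84.9 and 98.8 CPM and at 97.5, 85.1 and 120 CPM (0.28, SE 0.21, adjusted p = 0.351). The groups overlapped for all 3 subunits.

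Aldoa, the aldolase of muscle and most tissues, stood at 1766, 2347 and 2631 CPM with anti-IgG and at 1052, 1563 and 1384 CPM with anti-PD-1. The groups did not overlap, and the difference missed the threshold (2248 ± 441 against 1333 ± 259 CPM, SD, n = 3; log2 difference -0.75, SE 0.25, edgeR adjusted p = 0.054). It passed without anti-IgG library 1, the lowest of its group (adjusted p = 0.034), and was -0.55 (adjusted p = 0.149) with the gene-length trend removed. Gpi1, glucose phosphate isomerase, differed by -0.34 (adjusted p = 0.275) and Tpi1, triosephosphate isomerase, by -0.12 (adjusted p = 0.735).

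The 4 Pfkfb genes encode enzymes that make and degrade fructose 2,6-bisphosphate, and 1 of them rose, against 10.3% of all tested genes. Pfkfb3 (ENSMUSG00000026773, mm10 chr2:11471433-11554077, - strand), whose product favours synthesis, stood at 10.4, 9.40 and 6.36 CPM with anti-IgG and at 12.8, 16.9 and 14.1 CPM with anti-PD-1. The groups did not overlap (8.72 ± 2.10 against 14.6 ± 2.10 CPM, SD, n = 3; log2 fold change 0.74 with an SE of 0.24, edgeR adjusted p = 0.0473). The call was lost when any single library was left out, except anti-IgG library 1 (adjusted p 0.0785 to 0.124) and with the gene-length trend removed (0.50, adjusted p = 0.16). Pfkfb2, the heart-type isozyme, was at 67.3, 49.7 and 29.2 CPM and at 39.3, 33.1 and 23.8 CPM, with overlap (log2 difference -0.60, SE 0.29, edgeR adjusted p = 0.161). Pfkfb4 differed by -0.38 (adjusted p = 0.434) and Pfkfb1 by -1.26 (adjusted p = 0.216), the latter at 0.249 to 3.75 CPM per library. Without anti-PD-1 library 2, its highest, Pfkfb1 passed as lower (adjusted p = 0.0201).

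The pay-off phase, from glyceraldehyde 3-phosphate to pyruvate, had 7 tested genes, of which 1 fell and none rose (median 0.03). Among all tested genes 10.8% fell and 10.3% rose. Pgam2 (ENSMUSG00000020475, mm10 chr11:5801640-5803733, - strand) encodes the muscle subunit of phosphoglycerate mutase. It stood at 263, 459 and 583 CPM with anti-IgG and at 103, 219 and 167 CPM with anti-PD-1, so that every anti-PD-1 library was below every anti-IgG library. The means were 435 ± 161 and 163 ± 57.8 CPM (SD, n = 3; log2 fold change -1.42 with an SE of 0.34, edgeR adjusted p = 0.0182). The call was lost when either anti-IgG library 2 or 3, or either anti-PD-1 library 1 or 3, was left out (adjusted p 0.0512 to 0.0704). Once the gene-length trend was removed, the value was -0.69 (adjusted p = 0.103), and with the transcript-length trend -0.72 (adjusted p = 0.106). Of the 7 cardiomyocyte markers, Myl2, Tnni3 and Tnnt2 fell in the same libraries, Ryr2 rose and 3 did not pass. Their part in this result was not tested. The skeletal muscle markers summed to at most 3.10 CPM in any library.

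Pgam1, the mutase of most other tissues, stood at 31.9, 33.8 and 69.0 CPM with anti-IgG and at 83.2, 55.0 and 66.2 CPM with anti-PD-1. Its groups overlapped through anti-IgG library 3 (log2 difference 0.60, SE 0.30, edgeR adjusted p = 0.168), and without that library it passed as higher (adjusted p = 0.0268). With the gene-length trend removed it also passed (1.12, adjusted p = 0.0383). Of the 50-base words of its longest transcript, 41.5% recur in transcripts of 4 other annotated genes, so its reads may have been split. The 3 pseudogenes among those genes held 54 counts in the 6 libraries together, against 6677 on Pgam1. Pgam2 shares none of its words.

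Eno3, the muscle enolase, stood at 647, 658 and 998 CPM with anti-IgG and at 427, 648 and 475 CPM with anti-PD-1, with a small overlap (767 ± 199 against 517 ± 116 CPM, SD, n = 3; log2 difference -0.57, SE 0.25, edgeR adjusted p = 0.124). Eno1, the widely expressed enolase, was at 137, 140.1 and 172 CPM and at 155, 147 and 179 CPM (0.10, SE 0.19, edgeR adjusted p = 0.739). With the gene-length trend removed, Eno3 was at -0.06 (edgeR adjusted p = 0.896) and Eno1 at 0.005 (edgeR adjusted p = 0.99). Eno1 shares 72.2% of its 50-base words with 9 other genes, among them Eno1b, and Eno3 shares none. The 7 pseudogenes among the 9 held 136 counts in the 6 libraries together, against 18172 on Eno1. Pgk1, phosphoglycerate kinase, differed by 0.30 (adjusted p = 0.355). It shares 68.0% of its words with 5 other genes, and its level is uncertain in the same way. The 4 pseudogenes among the 5 held 121 counts, against 28464 on Pgk1. Pkm, pyruvate kinase, differed by 0.03 (adjusted p = 0.944). Pkm shares 34.4% of its words with 8 other genes, and the 6 pseudogenes among them held 737 counts, against 68436 on Pkm. Gapdh, normally among the most abundant transcripts, carried only 530 counts in the 6 libraries together, 65 to 139 in each. It shares 82.5% of its words with 222 other genes, and 7752 counts stood on the 212 pseudogenes among them. Its value (-0.48, adjusted p = 0.274) is uncertain for that reason.

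Lactate dehydrogenase and the monocarboxylate transporters, which interconvert pyruvate and lactate and carry both across the membrane, had 4 genes, and none passed. Ldhb, the heart subunit, stood at 1032, 901 and 928 CPM with anti-IgG and at 639.6, 892 and 618 CPM with anti-PD-1. Its groups did not overlap, but anti-PD-1 library 2 lay close to the anti-IgG libraries (954 ± 69.3 against 717 ± 152 CPM, SD, n = 3; log2 difference -0.41, SE 0.22, edgeR adjusted p = 0.2). Ldha, the muscle subunit, was at 547, 516 and 666 CPM and at 604, 482 and 583 CPM (-0.05, SE 0.21, edgeR adjusted p = 0.88). With either length trend removed, both differences were above zero (Ldhb 0.13 and 0.13, Ldha 0.07 and 0.30). Slc16a1, the transporter MCT1, was at 311, 304 and 289 CPM and at 559, 404 and 308 CPM (0.49, SE 0.23, edgeR adjusted p = 0.15). Slc16a3, the transporter MCT4 of glycolytic muscle, was at 2.46, 3.47 and 3.96 CPM and at 7.53, 2.63 and 4.47 CPM (0.57, SE 0.39, edgeR adjusted p = 0.317).

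The steps were also compared by their summed level, with each gene's CPM divided by its authors' length and isozymes added together (CPM per kb; a description with no test). Phosphoglycerate mutase stood at 542 ± 202 in the anti-IgG and 231 ± 61.0 in the anti-PD-1 libraries (SD, n = 3; ratio 0.426), the widest difference of the 10 steps. Aldolase stood at 772 ± 151 and 458 ± 89.0 (ratio 0.593), and lactate dehydrogenase at 782 ± 47.4 and 624 ± 77.9 (ratio 0.799). Hexokinase stood at 39.9 ± 8.42 and 55.8 ± 1.41 (ratio 1.40). In these 4 of 10 steps the groups did not overlap, with hexokinase higher and the other 3 lower, a share near the 41% of single genes. These sums carry the length trend: with the gene-length trend removed, Ldhb and Ldha were at 0.13 and 0.07, so that the lower level of lactate dehydrogenase did not hold. The same removal left Pgam2 at -0.69 (edgeR adjusted p = 0.103) and Pgam1 at 1.12 (edgeR adjusted p = 0.0383). Aldoa was then at -0.55 (adjusted p = 0.149), Hk2 at 0.45 (adjusted p = 0.179) and Hk1 at -0.08. Enolase stood at 469 ± 118 and 327 ± 65.3 (ratio 0.697), with overlap. Its lower level did not hold either, with Eno3 at -0.06 and Eno1 at 0.005 once the gene-length trend was removed. The remaining steps had ratios of 0.791 (glucose phosphate isomerase), 0.919 (triosephosphate isomerase), 1.02 (pyruvate kinase), 1.11 (phosphofructokinase) and 1.23 (phosphoglycerate kinase), all with overlap. In the order of levels, hexokinase was the lowest step in the anti-IgG libraries and lactate dehydrogenase and aldolase were the highest, which did not differ beyond their spread. With lengths of GENCODE transcripts in place of the authors' lengths, aldolase stood above lactate dehydrogenase (1451 ± 284 against 1049 ± 64.3 CPM per kb, SD, n = 3). The 10 ratios between groups then ran from 0.428 to 1.35; a change of divisor is no check on the length trend. The step of glyceraldehyde 3-phosphate dehydrogenase was left out because of its few assigned reads.

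**Figure D3:**
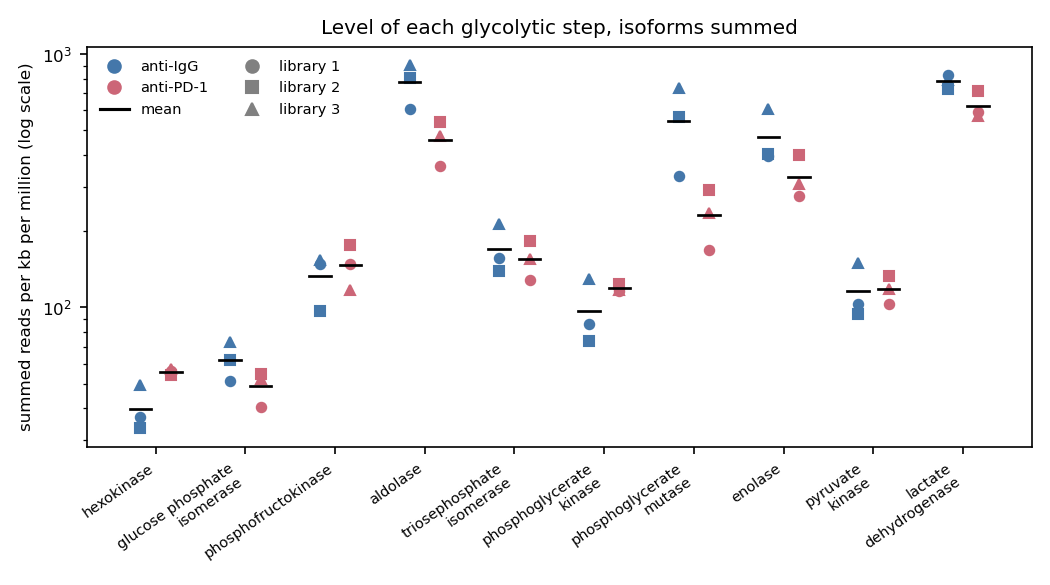
Level of each glycolytic step in every library (y axis, CPM per kb, isozymes summed, log scale), with blue for anti-IgG, red for anti-PD-1, a symbol for each library number and a line at the group mean. The anti-PD-1 points lie below all anti-IgG points at aldolase, phosphoglycerate mutase and lactate dehydrogenase and above them at hexokinase.

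Muscle or heart forms were compared with widely expressed or other forms by their ratio within each library, per kb of the authors' length, in 10 pairs. For lactate dehydrogenase the ratio sets the heart subunit Ldhb over the muscle subunit Ldha. For the monocarboxylate transporters it sets Slc16a1 over Slc16a3, the transporter of glycolytic muscle. For Aldoa against Aldoc no ratio was taken, because Aldoc had no count in 1 library. With 3 libraries against 3 the exact permutation test (two-sided) cannot give a p below 0.1, and p-values were adjusted over the 9 pairs. In 3 of the 9 pairs the groups did not overlap, as was so for 41% of single tested genes. All 3 had a lower share of the muscle isozyme with anti-PD-1. With the gene-length trend removed, Eno3 and Eno1 had log2 differences of -0.06 and 0.005, so little was left of the lower share of Eno3. The common direction therefore rests on ratios that carry the length trend.

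Pgam2 stood at 18.0, 29.6 and 18.4 times the level of Pgam1 in the anti-IgG libraries and at 2.70, 8.66 and 5.51 times in the anti-PD-1 libraries. The ratio was 4.23-fold lower (log2 difference -2.08, exact permutation p = 0.1, adjusted p = 0.3). Pgam2 made up 95.4% ± 1.12 of the pair in the anti-IgG and 82.4% ± 8.54 in the anti-PD-1 libraries (SD, n = 3). The difference ran from -2.47 to -1.63 with 1 library left out in turn. With the gene-length trend removed, Pgam2 was at -0.69 and Pgam1 at 1.12.

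Eno3 stood at 14.6, 14.5 and 17.9 times Eno1 with anti-IgG and at 8.54, 13.7 and 8.22 times with anti-PD-1 (log2 difference -0.66, exact permutation p = 0.1, adjusted p = 0.3). After removal of the gene-length trend, the log2 differences were -0.06 for Eno3 and 0.005 for Eno1. Pygm, the muscle glycogen phosphorylase, stood at 1.76, 2.50 and 2.30 times Pygb, the brain isozyme, with anti-IgG. With anti-PD-1 it stood at 1.38, 1.39 and 1.60 times (log2 difference -0.57, exact permutation p = 0.1, adjusted p = 0.3). With the gene-length trend removed, Pygm was at 0.25 and Pygb at 0.63. The share of Pygm in that pair was 68.3% ± 3.98 and 59.2% ± 1.95 (SD, n = 3).

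In the other 6 pairs the ratios overlapped. The log2 differences were -0.51 for Slc2a4 against Slc2a1, 0.38 for Hk2 against Hk1, -0.25 for Pfkm against Pfkl, -0.15 for Pfkm against Pfkp, -0.38 for Ldhb against Ldha and -0.01 for Slc16a1 against Slc16a3. Their exact permutation p-values were 0.2 to 1. With the gene-length trend removed, the log2 difference of Pfkm was 0.24, above those of Pfkl (0.12) and Pfkp (-0.18). Ldhb was then at 0.13 and Ldha at 0.07, and Slc16a1 and Slc16a3 were both at 0.48. In these pairs the first gene was thus no longer the lower one. Slc2a4 (0.19) stayed below Slc2a1 (0.72), and Hk2 (0.45) stayed above Hk1 (-0.08). Members of several pairs differ widely in length, for example 3340 bp for Pfkm and 13401 bp for Pfkp.

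**Figure D4:**
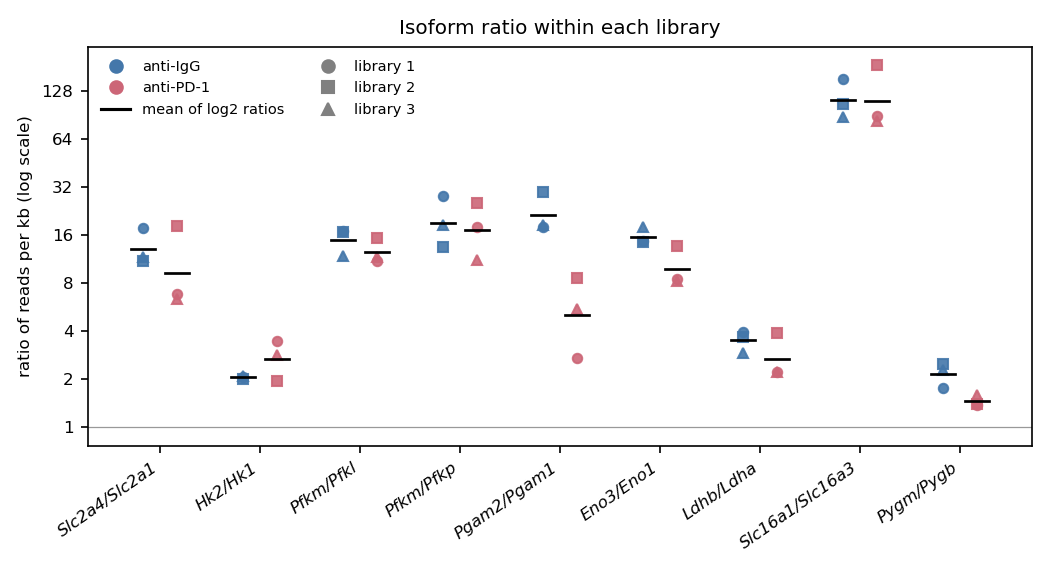
Ratio of reads per kb between 2 isozymes in every library (y axis, log scale) for the 9 pairs with counts, blue for anti-IgG and red for anti-PD-1, with lines at the mean of the log2 ratios. Pgam2 against Pgam1, Eno3 against Eno1 and Pygm against Pygb are the pairs whose groups do not overlap, and the first is the widest apart.

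Glycogen synthesis had 6 tested genes, of which 2 rose and none fell (5 higher, median 0.43), while 10.3% of all tested genes rose. Their summed level was 757 to 899 CPM with anti-IgG and 1155 to 1227 CPM with anti-PD-1, without overlap. Groups did not overlap in 41% of single tested genes either. Ugp2 held the largest part of the sum in both groups (means of 414 and 685 CPM), so the sum does not speak for all 6 genes. Ugp2 (ENSMUSG00000001891, mm10 chr11:21321138-21371201, - strand) encodes UDP-glucose pyrophosphorylase, which makes the activated glucose that glycogen synthase adds to the chain. It stood at 395, 397 and 448 CPM with anti-IgG and at 740.1, 622 and 691 CPM with anti-PD-1. Every anti-PD-1 library was well above the anti-IgG libraries (414 ± 30.3 against 685 ± 59.2 CPM, SD, n = 3; log2 fold change 0.73 with an SE of 0.20, edgeR adjusted p = 0.0261). The call was lost when either anti-IgG library 2 or 3, or either anti-PD-1 library 1 or 3, was left out (adjusted p 0.054 to 0.106). It passed with the gene-length trend removed (0.90, adjusted p = 0.0196) and with the transcript-length trend removed (0.80, adjusted p = 0.0359).

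Gbe1 (ENSMUSG00000022707, mm10 chr16:70313949-70569716, + strand) encodes the branching enzyme. It stood at 45.7, 25.8 and 38.1 CPM with anti-IgG and at 62.8, 64.9 and 68.5 CPM with anti-PD-1, and the anti-PD-1 libraries lay close together above all anti-IgG libraries. The means were 36.5 ± 10.1 and 65.4 ± 2.88 CPM (SD, n = 3; log2 fold change 0.84 with an SE of 0.21, edgeR adjusted p = 0.0208). The call was lost without any of the same 4 libraries as for Ugp2 (adjusted p 0.0565 to 0.0955). It passed with the gene-length trend removed (0.75, adjusted p = 0.0429) and did not with the transcript-length trend removed (0.72, adjusted p = 0.0649).

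Gys1, muscle glycogen synthase, stood at 46.8, 41.3 and 74.5 CPM with anti-IgG and at 72.7, 119 and 76.6 CPM with anti-PD-1, and did not pass (54.2 ± 17.8 against 89.3 ± 25.4 CPM, SD, n = 3; log2 difference 0.72, SE 0.26, edgeR adjusted p = 0.0737). It passed without anti-IgG library 3, the only one within the anti-PD-1 range (adjusted p = 0.0336). Gyg, glycogenin, the primer of the chain, differed by 0.14 (adjusted p = 0.604). The table names 2 phosphoglucomutases, which interconvert glucose 1-phosphate and glucose 6-phosphate. Its Pgm2 lies on chromosome 4 and is the gene that RefSeq now calls Pgm1, and its Pgm1 lies on chromosome 5 and is RefSeq's Pgm2. The chromosome 4 gene stood at 138 to 168 CPM with anti-IgG and 148 to 207 CPM with anti-PD-1 (0.14, adjusted p = 0.632). The chromosome 5 gene stood at 10.7 to 14.1 CPM and 8.36 to 9.57 CPM, without overlap (-0.50, adjusted p = 0.108).

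Glycogen breakdown had 5 tested genes, of which 2 rose and none fell (4 higher, median 0.63). Over all tested genes, 10.3% rose and 10.8% fell. Both that rose are subunits of phosphorylase kinase, the calcium- and hormone-driven enzyme that switches glycogen phosphorylase on. Phka1 (ENSMUSG00000034055, mm10 chrX:102513975-102644246, - strand) encodes the regulatory alpha subunit of muscle. It stood at 31.8, 27.9 and 31.5 CPM with anti-IgG and at 67.1, 94.2 and 67.4 CPM with anti-PD-1, a wide gap between groups. The means were 30.4 ± 2.16 and 76.2 ± 15.6 CPM (SD, n = 3; log2 fold change 1.33, SE 0.19, edgeR adjusted p = 0.00409). Phka1 was the only member that passed whichever library was left out (adjusted p 0.00431 to 0.0321). It also passed with the gene-length trend removed (1.16, adjusted p = 0.00827) and with the transcript-length trend removed (0.80, adjusted p = 0.0346).

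Phkb (ENSMUSG00000036879, mm10 chr8:85840959-86061376, + strand) encodes the beta subunit. It stood at 47.7, 42.2 and 34.4 CPM with anti-IgG and at 55.6, 75.6 and 60.6 CPM with anti-PD-1, without overlap (41.4 ± 6.73 against 63.9 ± 10.4 CPM, SD, n = 3; log2 fold change 0.63 with an SE of 0.19, edgeR adjusted p = 0.0411). The call was lost when any single library was left out, except anti-IgG library 1 (adjusted p 0.0688 to 0.126). Corrected for gene length, the value was 0.39 (adjusted p = 0.173), and with the transcript-length trend 0.18 (adjusted p = 0.576). Phkg1, the catalytic gamma subunit of muscle, stood at only 2.11 to 6.04 CPM per library and did not pass (-0.59, adjusted p = 0.239).

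The phosphorylases themselves did not pass. Pygm stood at 511, 455 and 603 CPM with anti-IgG and at 479, 746 and 465 CPM with anti-PD-1 (523 ± 74.8 against 563 ± 159 CPM, SD, n = 3; log2 difference 0.11, SE 0.24, edgeR adjusted p = 0.783). Pygb stood at 433, 272 and 392 CPM and at 518, 801 and 435 CPM (366 ± 83.6 against 585 ± 192 CPM; log2 difference 0.68, SE 0.27, edgeR adjusted p = 0.0959). The Pygb groups did not overlap, with anti-PD-1 library 3 just above anti-IgG library 1. Anti-PD-1 library 2 was the highest for both phosphorylases and for Phka1, Phkb and Gys1.

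Other genes of glycogen metabolism were read from a separate list of 17, of which 16 were tested. Of these, 6 rose, none fell, and 14 stood higher with anti-PD-1 (median 0.65), while 10.3% of all tested genes rose and 10.8% fell. Gsk3b, the kinase that inhibits glycogen synthase, rose from 69.9 ± 3.66 to 131 ± 12.8 CPM (SD, n = 3; log2 fold change 0.91, SE 0.17, edgeR adjusted p = 0.00824). Ppp1r3a, the muscle glycogen-targeting subunit of protein phosphatase 1, rose from 82.4 ± 14.1 to 218 ± 80.7 CPM (1.40, SE 0.27, edgeR adjusted p = 0.00879). Both passed whichever library was left out and with the gene-length trend removed (0.56, adjusted p = 0.049 and 1.20, adjusted p = 0.0194), and neither did with the transcript-length trend removed (adjusted p = 0.0877 and 0.0905). Further targeting subunits rose too: Ppp1r3c by 1.01 (adjusted p = 0.0162), Ppp1r3b by 1.29 (adjusted p = 0.0267) and Ppp1r3d by 0.68 (adjusted p = 0.0493). With the gene-length trend removed, Ppp1r3c and Ppp1r3d passed (1.25, adjusted p = 0.0165 and 0.81, adjusted p = 0.0393) and Ppp1r3b did not (1.13, adjusted p = 0.0683). With the transcript-length trend removed, the calls of Ppp1r3b and Ppp1r3d were lost (adjusted p = 0.0839 and 0.09). The calls of Ppp1r3c, Ppp1r3b and Ppp1r3d were lost without 3, 4 and 6 of the 6 libraries in turn, anti-IgG library 2 and anti-PD-1 library 1 among them for all 3 genes (adjusted p up to 0.194).

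A separate list of 21 further genes of glycolysis and gluconeogenesis had 15 tested, of which none rose and 2 fell (median -0.18), against 10.8% of all tested genes that fell. Fbp2, the muscle fructose bisphosphatase, fell from 10.9 ± 0.621 to 4.36 ± 2.46 CPM (SD, n = 3; log2 fold change -1.32, SE 0.34, edgeR adjusted p = 0.0236). Its call was lost with the gene-length trend removed (-0.76, adjusted p = 0.134). It was also lost when anti-IgG library 2 or 3 was left out, as when anti-PD-1 library 1 or 3 was (adjusted p 0.0646 to 0.0791).

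The pentose phosphate pathway, which supplies NADPH and ribose, had 4 tested genes, all lower with anti-PD-1 (median -0.44). Of these 1 fell, against 10.8% of all tested genes. Taldo1 (ENSMUSG00000025503, mm10 chr7:141392199-141402968, + strand), a transaldolase of the non-oxidative branch, stood at 57.2, 55.9 and 75.5 CPM with anti-IgG and at 39.4, 41.4 and 43.6 CPM with anti-PD-1. The groups did not overlap, and the anti-PD-1 libraries lay close together (62.9 ± 11.0 against 41.5 ± 2.10 CPM, SD, n = 3; log2 fold change -0.60 with an SE of 0.18, edgeR adjusted p = 0.0362). The call was lost when any single library was left out, except anti-IgG library 1 (adjusted p 0.0765 to 0.13) and with either length trend removed (-0.21, adjusted p = 0.437 and -0.08, adjusted p = 0.787).

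Tkt, the transketolase of the same branch, stood at 27.1, 44.4 and 48.2 CPM with anti-IgG and at 19.1, 25.9 and 29.7 CPM with anti-PD-1, with overlap at anti-IgG library 1. It did not pass (39.9 ± 11.2 against 24.9 ± 5.37 CPM, SD, n = 3; log2 difference -0.68, SE 0.24, edgeR adjusted p = 0.0689), but did without that library (adjusted p = 0.0156). It passed as lower with the gene-length trend removed (-0.93, adjusted p = 0.0452). The oxidative enzymes did not pass: Pgd, which makes ribulose 5-phosphate, differed by -0.02 (adjusted p = 0.953) and G6pdx, the entry enzyme, by -0.27 (adjusted p = 0.52).

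**Figure D5:**
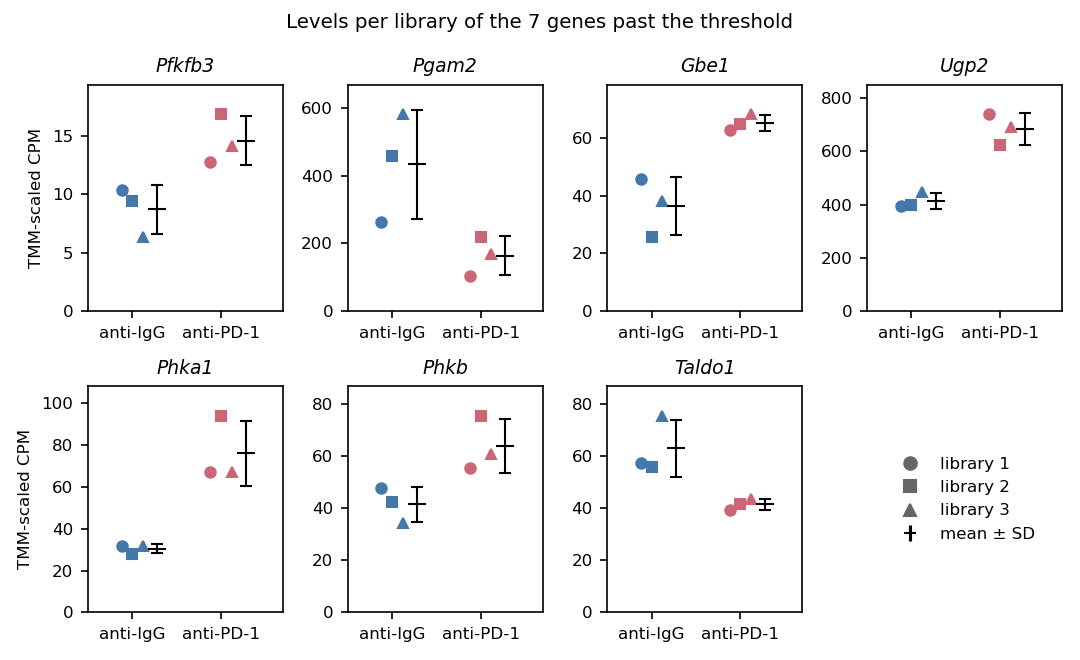
TMM-scaled CPM (y axis, from 0) of the 7 genes past the threshold in every library, blue for anti-IgG and red for anti-PD-1, with a symbol for each library number and the mean ± SD beside each group. In none of the 7 panels do the groups overlap, and the gap is widest relative to the spread for Phka1 and Ugp2.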

How the data were processed

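Enriched mRNA from left ventricle was sequenced in 6 libraries made with a NEBNext Ultra kit, per the labels' protocols. The authors deposited raw read counts per gene and FPKM values with a gene length in bp; featureCounts and mm10 are named in the submitters' processing notes, and the aligner, strand setting and handling of multiply mapping reads are not given in the sources used here. Members and lists had been chosen with earlier results of these data known. Counts were tested in edgeR 4.0.16 (R 4.3.3; filterByExpr, TMM, robust quasi-likelihood, anti-PD-1 against anti-IgG, no covariates), with Benjamini-Hochberg adjustment over all tested genes at 0.05. Length trends were removed per library by a spline with 5 degrees of freedom on log2 CPM (prior count 2) entered as offsets. Gene models and shared 50-base words came from GENCODE M21, promoters from RefSeq. Alternatives included DESeq2 1.42.0 and limma 3.58.1 on log2(FPKM + 1). The procedure was tested on simulated data. Depth of 18063344 to 21093163 counts per library limits genes such as Aldoc. Full values were given for members past the threshold and for isozyme pairs, and in other lists for the 2 genes with the smallest p and for all past the threshold up to 6. From the other lists, 2 of the genes past the threshold are counted but not reported here.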

Additional observations from a re-analysis of the deposited data

How the results depend on the processing

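Against 3118 called genes, 5 rising and 2 falling members, 572, 1 and 0 were called at an adjusted p under 0.01, and 8 members rose and 4 fell at 0.1. DESeq2 had 8 rising members, no low-count filter 10 and 5 falling, upper-quartile scaling 3 and 4, and all 3 limma-trend fits on log2 FPKM 1 falling. With the gene-length trend removed 1526 genes were called, 4 members rising and 1 falling, and with the coding plus 3′ UTR trend 832, 2 and 0. Leaving out 1 library gave 532 to 3646 genes, 1 to 5 rising and 0 to 4 falling members; Phka1 rose under every setting run. Fewest genes were called without anti-IgG library 2 (532) and anti-PD-1 library 1 (969).

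Some values changed sign, among them those of members above or below zero by little in the reported fit, but also Gapdh (-0.48), Ldhb (-0.41) and, outside the members, Pik3ca (0.58). Pgd was above zero with RLE factors (0.00074), DESeq2 (0.016), limma-voom (0.00068), limma-trend (0.016, 0.023 and 0.016), no mitochondrial or haemoglobin genes (0.0034) and the coding plus 3′ UTR trend removed (0.17). Pkm was -0.063 with upper-quartile scaling. With the gene-length trend removed, Hk1 was -0.080, Pfkp -0.18, Tpi1 0.11, Pkm -0.032, Ldha 0.073 and Ldhb 0.13, and the ratios of Pfkm to Pfkl 0.37, Pfkm to Pfkp 0.96, Eno3 to Eno1 0.54, Ldhb to Ldha 0.49 and Slc16a1 to Slc16a3 0.15. With the coding plus 3′ UTR trend removed, Pfkp was -0.015, Tpi1 0.20, Gapdh 0.10, Ldha 0.30, Ldhb 0.13 and Pik3ca -0.16. Leaving out 1 library gave ranges of -0.061 to 0.27 for Slc2a4, -0.086 to 0.29 for Pfkm, -0.27 to 0.075 for Tpi1, -0.12 to 0.26 for Pkm, -0.14 to 0.071 for Ldha, -0.13 to 0.24 for Pygm and -0.18 to 0.22 for Pgd, and of -0.43 to 0.16 and -0.38 to 0.21 for the ratios of Pfkm to Pfkp and of the transporters. The cause was not tested.

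The replicate numbers did not pair the libraries: same-numbered deviations correlated at 0.12, -0.14 and 0.21. With the number as a replicate block, 3367 genes were called, 5 members rose and 5 fell (Pfkfb1, Pfkfb2 and Tkt besides Pgam2 and Taldo1), the calls of Ppp1r3b and Ppp1r3d were lost (adjusted p = 0.0596 and 0.0646), and the sign-flip p of the isoform ratios was 0.25 to 1. With the block and the gene-length trend removed, 1466 genes were called, 4 members rose and 2 fell, and Hk1 was -0.071, Pfkp -0.15, Tpi1 0.12, Pkm -0.0090, Ldha 0.074 and Ldhb 0.13. Not every library correlated best with its own number.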

Other observations

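Genes of insulin action and glucose sensing formed a separate list of 19, all tested, of which 6 rose and none fell (median log2 difference 0.54, 16 of 19 higher), while 10.3% of all tested genes rose. Irs1, Prkaa2, Mlxip, Pik3ca and Pik3r1 are 7969 to 10079 bp long, in the length group where 24.5% of genes rose. Irs1, the insulin receptor substrate, rose from 3.97 ± 1.09 CPM with anti-IgG to 19.4 ± 3.99 CPM with anti-PD-1 (SD, n = 3; log2 fold change 2.28, SE 0.27, edgeR adjusted p = 0.00206). Prkaa2, the catalytic subunit of the energy sensor AMPK that prevails in muscle, rose from 92.0 ± 32.5 to 257 ± 47.6 CPM (1.48, SE 0.26, edgeR adjusted p = 0.00715). Both passed whichever library was left out and with either length trend removed. Mlxip, a glucose-responsive transcription factor, rose by 0.77 (adjusted p = 0.0165), and its call was lost without anti-IgG library 2 (adjusted p = 0.06). Pik3ca and Pik3r1, subunits of phosphoinositide 3-kinase, rose by 0.58 (adjusted p = 0.0323) and 1.12 (adjusted p = 0.0347). Pik3r1 stood at 212 CPM in anti-PD-1 library 2 and at 94.7 and 87.5 CPM in the other anti-PD-1 libraries, and without library 2 its value was 0.61 (adjusted p = 0.0567). With the coding plus 3′ UTR trend removed, Pik3ca was at -0.16 (adjusted p = 0.586). Prkaa1, the other catalytic subunit of AMPK, rose by 0.62 (adjusted p = 0.0484). The calls of Pik3ca, Pik3r1 and Prkaa1 were lost when anti-IgG library 2 or 3 was left out, as when anti-PD-1 library 2 was, and those of Pik3ca and Prkaa1 also without anti-PD-1 library 1 or 3 (adjusted p 0.0567 to 0.164). With the gene-length trend removed, Mlxip, Pik3ca, Pik3r1 and Prkaa1 did not pass (adjusted p = 0.0914, 0.297, 0.134 and 0.0776).

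Further pentose phosphate and hexosamine genes formed a list of 12, of which 10 were tested, 1 rose and none fell (median 0.26), against 10.3% and 10.8% of all tested genes. Gfpt1, the entry enzyme of the hexosamine pathway, which diverts fructose 6-phosphate from glycolysis, rose from 22.7 ± 4.39 to 47.8 ± 8.80 CPM (SD, n = 3; log2 fold change 1.07, SE 0.21, edgeR adjusted p = 0.00864). It passed with the gene-length trend removed (0.72, adjusted p = 0.032), but not without anti-IgG library 2 (adjusted p = 0.0556) or with the transcript-length trend removed (adjusted p = 0.065). H6pd, the endoplasmic reticulum relative of glucose 6-phosphate dehydrogenase, differed by 0.62 (adjusted p = 0.0543). Markers of other cell types varied too: of 5 macrophage markers Adgre1 rose and C1qa fell, of 3 tested T cell markers Cd2 and Trac fell, and none of the 6 fibroblast, 5 endothelial or 5 smooth muscle markers passed. The 5 listed T cell markers summed to only 3.38 to 4.46 CPM with anti-IgG and 2.36 to 2.94 CPM with anti-PD-1. Cd3e and Cd3d among them were not tested.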
